A study of Homo sapiens with 6 samples.

Results

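The genes described here encode the class I histone deacetylases and some subunits of the nucleosome remodeling and deacetylase complex (NuRD). The deacetylases are HDAC1, HDAC2, HDAC3 and HDAC8, and the subunits taken beside them are CHD4, MTA1, MTA2, MBD3, RBBP4 and RBBP7. They were chosen by name as deacetylases of class I and NuRD subunits, and all 10 were measured among 18404 genes, each by 1 probe set and none at the lowest value of the table. Expression was measured on 6 Affymetrix arrays of H661 cells, a human large cell lung carcinoma line that expresses SALL4. The control group (Scr-sh, 3 arrays) carried a scrambled short hairpin RNA (shRNA), and the knockdown group (SALL4-sh, 3 arrays) carried an shRNA against SALL4. Both shRNAs were delivered by lentivirus and both groups grew in the same medium with serum, and the labels name no deacetylase inhibitor. As a model this is 1 cell line with 1 SALL4 shRNA, and the sources used here do not state the time between transduction and RNA extraction. The labels do not tell whether replicate arrays stem from separate cultures. The p-values therefore reflect only how far these 6 arrays vary, and part of that variation may be technical.

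NuRD joins a pair of activities in one assembly, an ATPase of the CHD family that moves nucleosomes and the deacetylases HDAC1 and HDAC2, which remove acetyl groups from histone tails. MTA proteins are the scaffold that holds the deacetylases, MBD proteins link this scaffold to the rest of the complex, and RBBP4 and RBBP7 bind histones and a short motif found in several transcription factors. SALL4, a zinc finger factor of embryonic stem cells that is silent in most adult tissues, carries such a motif at its amino terminus and recruits NuRD to the genes it represses. The comparison therefore asks whether the transcripts of the complex that SALL4 recruits, and of the enzymes that class I deacetylase inhibitors act on, differ when SALL4 is reduced.

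SALL4 itself checked the labels. Its normalized intensity was 125.5, 104 and 130.2 in Scr-sh and 33.6, 31.9 and 26.5 in SALL4-sh, and it fell by 1.97 on the log2 scale (limma, adjusted p = 0.0159). With any 1 array left out the difference held its size but passed only without Scr-sh replicate 2 (limma, adjusted p = 0.0309 to 0.0741). Intensities correlated at r = 0.969 to 0.980 between arrays of one group and at 0.955 to 0.965 between groups, over probe sets, and no pair of arrays held identical values. The epithelial marker EPCAM lay at 589.8 to 1113 and the mesenchymal marker VIM at 940.5 to 1615. In contrast, KRT8 (8.0 to 11.1), CDH1 (8.0 to 17.3) and the lung marker NKX2-1 (11.6 to 16.8) stayed near the floor of 8. The other epithelial markers were KRT18 (28.8 to 76.7) and KRT19 (10.2 to 15.0). Of the other mesenchymal markers, CDH2 lay at 22.9 to 32.8 and FN1 was at the floor on all 6 arrays. CDH1, an epithelial adhesion gene, was the 1 of these markers past the adjusted threshold, and it was higher in SALL4-sh (limma, adjusted p = 0.0456). With 1 array left out CDH1 had adjusted p = 0.0438 to 0.155 in limma, passing only without Scr-sh replicate 1. Its part in the results on the members was not tested. The leukocyte markers PTPRC, CD3E and LYZ were at the floor on all 6 arrays. The 12 proliferation genes examined had a median log2 difference of 0.02. In limma 0 of them passed the adjusted threshold, beside 2.51% of all genes. An unadjusted p under 0.05 was reached by 2 of the 12, beside 17.4% of all genes. These are bulk RNA samples, in which fewer cells of a type and less RNA per cell cannot be told apart.

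Against this background, the members differed in both directions after SALL4 knockdown. RBBP4 was lower by more than any other member and HDAC2 was higher, and both passed the threshold only when weakly expressed genes were left out of the fit. HDAC1, CHD4, MTA1, MTA2 and RBBP7 were lower in every SALL4-sh array than in every Scr-sh array but passed at neither setting, and HDAC3, HDAC8 and MBD3 had groups that overlapped. Across all 18404 genes, 0 of the 10 members passed an adjusted p of 0.05 in limma, where 2.51% of genes passed. At an unadjusted p under 0.05, 5 members passed (HDAC2 higher and HDAC1, MTA1, RBBP4 and RBBP7 lower) against 17.4% of all genes. When weakly expressed genes were dropped before the fit, those up to the 25th percentile of mean intensity, a step that removed no member, RBBP4 and HDAC2 passed, which is 2 of 10 beside 11.5% of the genes kept.

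The groups did not overlap for 6 members lower in SALL4-sh, beside 12.5% of the 14511 genes above the floor on at least 1 array, and for 1 member higher, beside 15.0%. The median log2 difference of the members was -0.32, against 0.01 for those 14511 genes. With each array centred on its median, CHD4 and MTA2 overlapped and 4 members remained lower without overlap. Each of these separated genes had p = 0.1 in the exact two-sided permutation test, the smallest that 3 against 3 arrays can give.

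**Figure D1:**
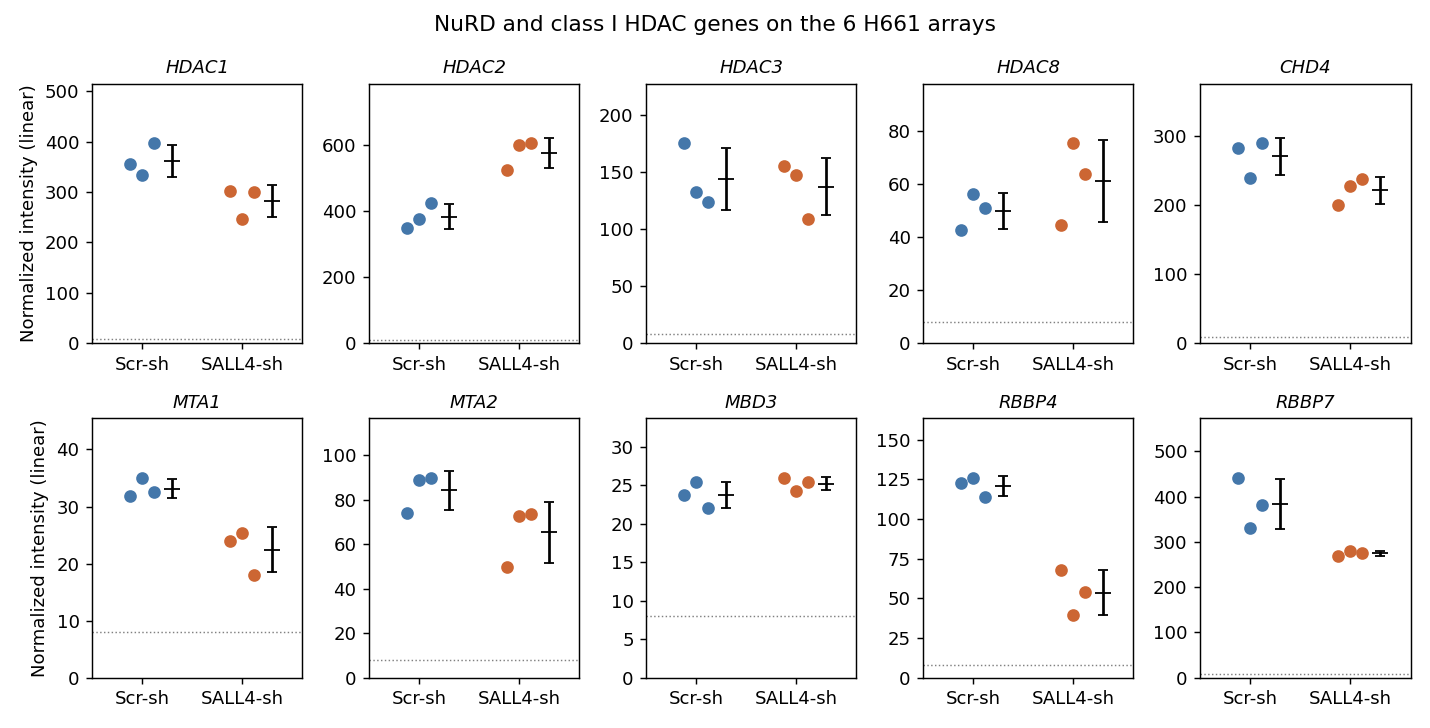
Normalized intensity (linear scale, y axis from 0) of each member on the 3 Scr-sh and 3 SALL4-sh arrays, with the mean and SD beside the points and the floor of 8 dotted. RBBP4 lay at 114 to 126 in Scr-sh and at 39.3 to 67.6 in SALL4-sh, and HDAC2 lay higher in all 3 SALL4-sh arrays, at 523 to 604.

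**Figure D2:**
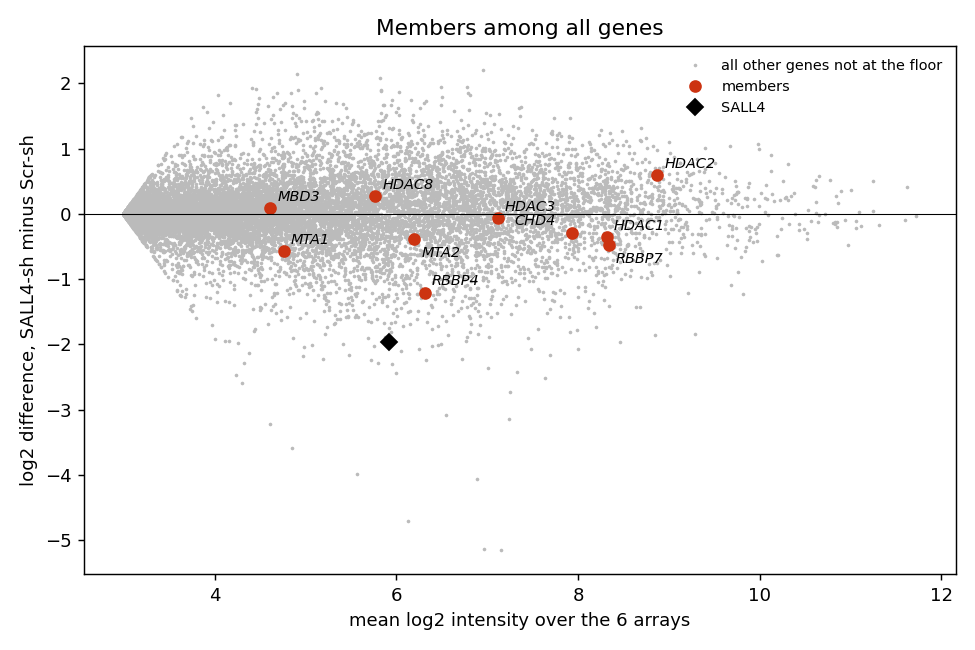
The log2 difference (SALL4-sh minus Scr-sh, y axis) of each gene against its mean log2 intensity over the 6 arrays (x axis), with the members in red and SALL4 as a black diamond. RBBP4, at -1.20, was the member farthest from 0, and the other 9 members lay between -0.57 and 0.59.

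The members on which the comparison turned are the deacetylase pair HDAC1 and HDAC2 and the histone-binding pair RBBP4 and RBBP7, and their promoters are shown because each pair fills one place in the complex and the within-array ratio of its probe sets did not overlap between the groups, although neither ratio passed after adjustment (exact permutation p = 0.1, adjusted p = 0.25). The sequences are the 200 bases before the first start that RefSeq lists for each gene on GRCh38.p14, 5′ to 3′ on the strand of the gene. They are chr1:32291883-32292082 (plus strand) for HDAC1, chr6:113971149-113971348 (minus strand) for HDAC2, chr1:32651008-32651207 (plus strand) for RBBP4 and chrX:16870363-16870562 (minus strand) for RBBP7. Capitals mark the CCAAT box (CCAAT), the GC box (GGGCGG), the core of ETS factor sites (CCGGAAG) and 4 E2F octamers (TTTCCCGC, TTTCGCGC, TTTGCCGC and TTTGGCGC), each searched on both strands, so that ATTGG and CCGCCC are the same boxes on the other strand.
HDAC1: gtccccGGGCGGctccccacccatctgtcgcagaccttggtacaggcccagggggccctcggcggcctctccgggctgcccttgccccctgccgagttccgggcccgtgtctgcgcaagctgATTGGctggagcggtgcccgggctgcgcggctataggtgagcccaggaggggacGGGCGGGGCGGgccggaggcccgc
HDAC2: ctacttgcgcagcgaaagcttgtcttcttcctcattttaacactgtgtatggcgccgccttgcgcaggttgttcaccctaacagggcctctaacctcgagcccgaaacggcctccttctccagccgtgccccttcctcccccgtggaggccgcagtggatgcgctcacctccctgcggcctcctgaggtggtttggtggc
RBBP4: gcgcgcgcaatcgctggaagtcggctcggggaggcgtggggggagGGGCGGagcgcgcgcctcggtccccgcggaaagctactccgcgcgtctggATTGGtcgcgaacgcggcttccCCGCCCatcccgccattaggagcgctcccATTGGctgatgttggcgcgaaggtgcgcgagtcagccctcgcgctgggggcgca
RBBP7: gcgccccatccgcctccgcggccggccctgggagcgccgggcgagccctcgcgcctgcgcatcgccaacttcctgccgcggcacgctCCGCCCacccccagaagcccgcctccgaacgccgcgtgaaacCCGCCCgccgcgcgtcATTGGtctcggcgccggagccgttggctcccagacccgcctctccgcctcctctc

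All 4 stretches hold more G and C than the median promoter of 59.0%, with 76.0% for HDAC1, 61.5% for HDAC2, 72.5% for RBBP4 and 77.5% for RBBP7. The HDAC1 stretch holds 1 CCAAT box and 3 GC boxes, of which the last pair overlaps, and the HDAC2 stretch holds none of the letters searched. RBBP4 has 2 CCAAT boxes and 2 GC boxes, and RBBP7 has 1 and 2. Among all 10 members, 4 hold a CCAAT box, 8 a GC box, 2 an ETS core and 0 an E2F octamer, where the shares over 35116 RefSeq promoters of the same length are 28.0%, 40.1%, 7.71% and 2.27%. These matches are of letters only, and no binding was measured.

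HDAC1 and HDAC2 are the catalytic deacetylases of NuRD, close paralogs that also serve the SIN3 and CoREST complexes. The intensity of HDAC2 was 349, 376 and 423 in Scr-sh and 523, 598 and 604 in SALL4-sh. Every SALL4-sh array thus lay above every Scr-sh array. Its mean went from 382 ± 37.5 to 575 ± 44.9 (SD, n = 3 each), a 1.505-fold higher level (95% interval 1.25 to 1.81). In limma this was a log2 difference of 0.59 (SE 0.10) with adjusted p = 0.0742 across all genes and 0.0452 without those weak genes. With that filter and any 1 array left out, HDAC2 no longer passed, at adjusted p = 0.0694 to 0.136 in limma, while the log2 difference stayed between 0.53 and 0.66.

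HDAC1 went the other way, with 355, 333 and 397 in Scr-sh and 301, 246 and 300.03 in SALL4-sh. The groups did not overlap, but the gap between the nearest arrays, 333 and 301, was about as large as the SD within a group. The means were 362 ± 32.1 and 282 ± 31.7, a fold of 0.779 (95% interval 0.629 to 0.966) with adjusted p = 0.226 in limma.

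The other class I deacetylases work outside NuRD. HDAC3 is the enzyme of the NCoR and SMRT corepressors, and it measured 175, 132 and 124 in Scr-sh and 155, 147 and 109 in SALL4-sh. Its groups overlapped almost fully. The fold was 0.952 with an interval of 0.644 to 1.41, which includes a difference of the size seen for HDAC1, and the direction turned when Scr-sh replicate 1 or SALL4-sh replicate 3 was left out (log2 0.079 and 0.089). HDAC8 acts outside the known corepressor complexes and deacetylates the cohesin subunit SMC3. It gave 42.7, 56.2 and 50.9 in Scr-sh and 44.5, 75.4 and 63.7 in SALL4-sh. The lowest SALL4-sh array lay inside the Scr-sh range, and the fold of 1.20 (0.771 to 1.88) had an adjusted p of 0.764 in limma. Its log2 difference of 0.27 was 0.10 without SALL4-sh replicate 2 and 0.48 without SALL4-sh replicate 1.

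CHD4 is the ATPase that gives NuRD its remodeling activity. It measured 283, 239 and 289 in Scr-sh and 199.6, 227 and 238 in SALL4-sh. The groups only just stayed apart, since the lowest Scr-sh array was 239 and the highest SALL4-sh array 238. The means of 270.4 ± 27.1 and 221 ± 19.6 gave a fold of 0.819 (0.670 to 1.00) and an adjusted p of 0.293 in limma.

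The scaffold genes MTA1 and MTA2, whose proteins hold HDAC1 or HDAC2, were both lower in SALL4-sh. MTA1 was 31.8, 35.0 and 32.6 in Scr-sh and 24.0, 25.3 and 18.0 in SALL4-sh. All Scr-sh arrays lay within a narrow range above the SALL4-sh arrays. The means were 33.1 ± 1.64 and 22.5 ± 3.89, a fold of 0.671 (0.508 to 0.887), with adjusted p = 0.157 in limma and 0.0720 without weak genes. MTA2 was 74.1, 88.9 and 89.7 in Scr-sh and 49.7, 72.6 and 73.7 in SALL4-sh. Here too the groups met almost edge to edge, at 74.1 and 73.7, and the fold of 0.766 had an interval of 0.532 to 1.10 that included no difference (limma, adjusted p = 0.450). Without SALL4-sh replicate 1, the lowest array, the log2 difference of -0.38 was -0.20.

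MBD3, which links the scaffold to CHD4 and, unlike MBD2, does not select methylated DNA, gave 23.7, 25.4 and 22.1 in Scr-sh and 25.9, 24.3 and 25.4 in SALL4-sh. The ranges overlapped. In the fit across all genes its fold of 1.06 had the narrowest interval among the members, 0.949 to 1.19. A change as large as that of HDAC2 or RBBP4 lay outside it (limma, adjusted p = 0.623). Without weak genes the same difference had an unadjusted p of 0.574 in limma, against 0.216 across all genes, so the estimate was less precise there. The log2 difference of 0.09 ranged from 0.038 to 0.14 with 1 array left out.

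RBBP4 and RBBP7 are WD40 proteins that bind histones in NuRD, in the SIN3 complex and in Polycomb repressive complex 2, and RBBP4 also belongs to the chromatin assembly factor CAF-1. RBBP4 was 123, 126 and 114 in Scr-sh and 67.6, 39.3 and 53.8 in SALL4-sh. The highest SALL4-sh array stood far below the lowest Scr-sh array. The mean went from 121 ± 6.31 to 53.6 ± 14.2, a fold of 0.434 (95% interval 0.288 to 0.652). The log2 difference of -1.20 (SE 0.22) had an adjusted p of 0.0858 in limma across all genes and 0.00794 without weak genes. Across all genes it did not pass whichever of the 6 arrays was left out (limma, adjusted p = 0.106 to 0.227). With that filter, a combination chosen after seeing the data, it passed in each case, at adjusted p = 0.0184 to 0.0481 in limma. The log2 difference was -1.39 to -0.999 in both fits.

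RBBP7 was also lower, by less. It measured 441, 331 and 381 in Scr-sh and 269, 279 and 276 in SALL4-sh. The SALL4-sh arrays agreed closely (SD 5.27) while the Scr-sh arrays spread widely (SD 54.9), and the groups did not overlap. The means of 384 and 275 gave a fold of 0.720 (0.582 to 0.890) and an adjusted p of 0.137 in limma, 0.104 without weak genes. RBBP4 and RBBP7 are close paralogs, and how far the probes of one detect the transcript of the other was not tested.

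Because HDAC1 and HDAC2, and RBBP4 and RBBP7, take the same place in the complex, the log2 ratio of the paralogs was formed within each array, for 5 pairs in all. It shows whether both members of a pair differed equally and is not a ratio of transcript amounts. The ratio of HDAC1 to HDAC2 was 0.03, -0.17 and -0.09 in Scr-sh and -0.80, -1.28 and -1.01 in SALL4-sh. The groups were well apart, and the difference of -0.95 corresponds to a ratio of 0.518 relative to the control. It had p = 0.1 in the exact two-sided permutation test, the smallest possible here, and 0.25 after Benjamini-Hochberg adjustment over the 5 pairs. Leaving out any 1 array gave -1.07 to -0.82.

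The ratio of RBBP4 to RBBP7 was -1.85, -1.40 and -1.74 in Scr-sh and -1.99, -2.83 and -2.36 in SALL4-sh. These groups were also apart, by a smaller margin, with a difference of -0.73, an exact permutation p of 0.1 and an adjusted p of 0.25. Leaving out any 1 array gave -0.93 to -0.51. The exact permutation p was then 0.2 without a Scr-sh array and 0.1 without a SALL4-sh array. The remaining pairs had groups that overlapped. The differences were -0.19 for MTA1 to MTA2 (exact permutation p = 0.6), 0.06 for MBD3 to MBD2 (p = 0.7) and 0.06 for CHD4 to CHD3 (p = 0.9), and the sign of each changed when 1 array was left out.

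**Figure D3:**
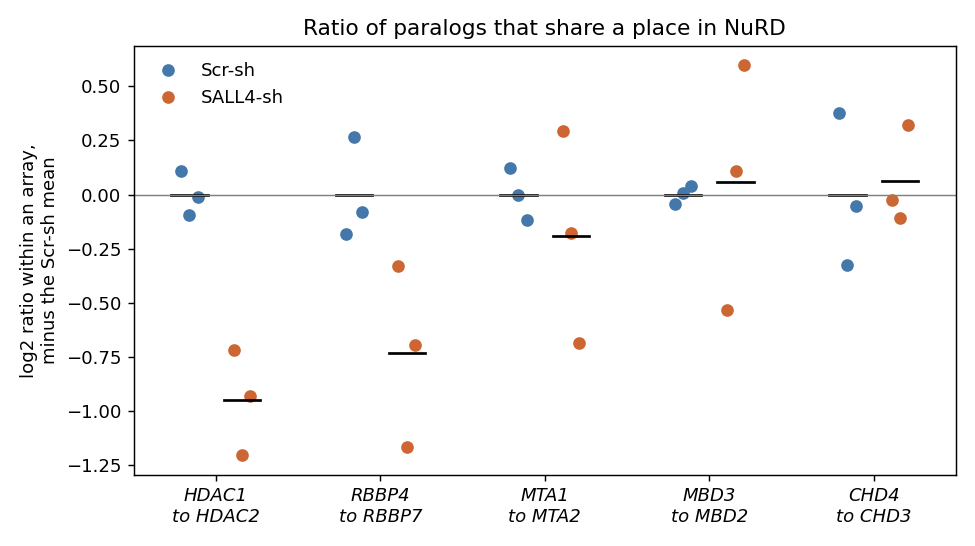
Within-array log2 ratio of 5 pairs of paralogs, each minus the Scr-sh mean of its pair, for the 3 Scr-sh and 3 SALL4-sh arrays with group means as bars. The HDAC1 to HDAC2 and RBBP4 to RBBP7 ratios were lower in all 3 SALL4-sh arrays, by 0.95 and 0.73 on average, and the other 3 pairs overlapped.

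All 7 other subunits of NuRD were measured, and 0 passed in limma with or without weak genes, beside 2.51% and 11.5% of the genes fitted. An unadjusted p under 0.05 was reached by 1 of the 7, where 17.4% of all genes reached it, and their median log2 difference was -0.12. That gene was CHD5, a CHD family ATPase best known from the nervous system, at 17.4, 15.8 and 17.3 in Scr-sh and 13.8, 11.7 and 15.3 in SALL4-sh (adjusted p = 0.279 in limma). Its groups did not overlap, but the intensities lay close to the floor. CHD3, the other ATPase of the complex, had a log2 difference of -0.35 (adjusted p = 0.448 in limma) and overlapping groups. The scaffold paralog MTA3 (0.03), the methyl-CpG reader MBD2 (0.03), the GATA zinc finger subunits GATAD2A (-0.14) and GATAD2B (-0.12), and CDK2AP1 (-0.02) overlapped too. The intervals of the fold were wide for MBD2, 0.555 to 1.88, and narrower for CDK2AP1, 0.753 to 1.28.

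**Figure D4:**
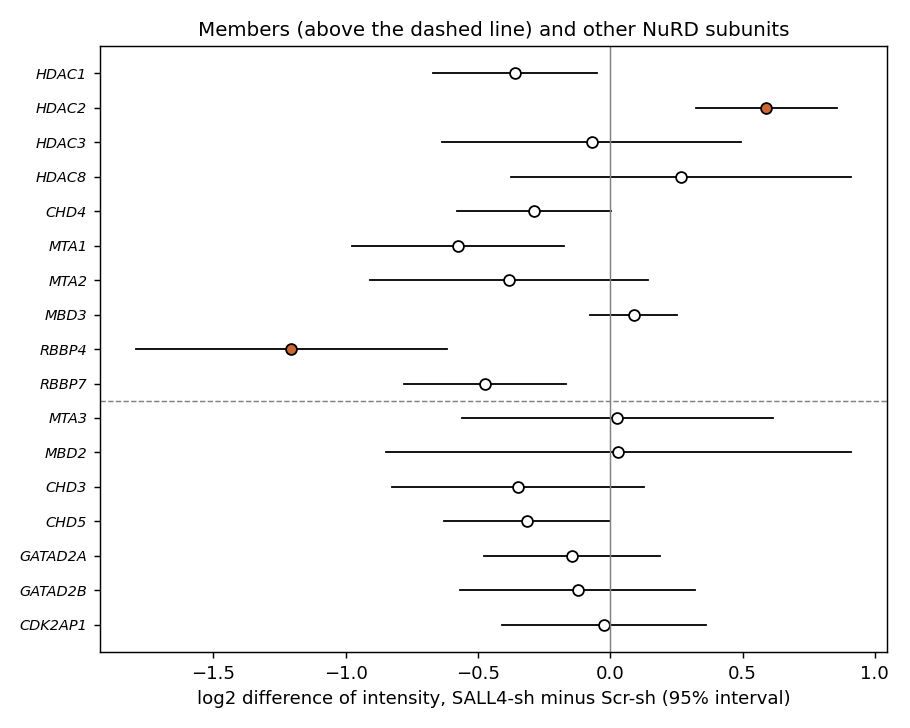
The log2 difference of intensity (SALL4-sh minus Scr-sh) with its 95% interval for the members, above the dashed line, and the 7 other NuRD subunits below it. Orange marks genes past an adjusted p of 0.05 only without weak genes (RBBP4 at -1.20 and HDAC2 at 0.59), and white marks genes that passed at neither setting.

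HDAC1, HDAC2 and HDAC3 also work in the SIN3, CoREST, NCoR and SMRT, MIER and MiDAC complexes, and 24 of 28 listed subunits of these were measured. Their median log2 difference was 0.02. Across all genes 1 of the 24 passed in limma, where 2.51% of all genes passed. This was PHF21A, the CoREST subunit that reads unmodified histone H3. It was 437, 419.7 and 485 in Scr-sh and 306, 302 and 282 in SALL4-sh. The groups were clearly apart, and PHF21A fell by 0.59 on the log2 scale (adjusted p = 0.0380). With any 1 array left out it no longer passed in limma (adjusted p = 0.0549 to 0.128). Without weak genes 6 of the 24 passed, 3 in each direction, beside 11.5% of the genes kept. The higher ones were the HDAC1 and HDAC2 scaffold MIER3 (1.12, adjusted p = 0.0124), the SIN3 subunit ING2 (1.06, adjusted p = 0.0165) and the MiDAC subunit DNTTIP1 (0.78, adjusted p = 0.0366), all in limma. The lower ones were PHF21A and the NCoR and SMRT subunits TBL1X (-1.17, adjusted p = 0.0156) and TBL1XR1 (-1.03, adjusted p = 0.0177). DNTTIP1 and TBL1X were named after their values were seen. SAP18, a subunit of the SIN3 complex, had a log2 difference of 0.47 and an adjusted p of 0.108 across all genes in limma.

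**Figure D5:**
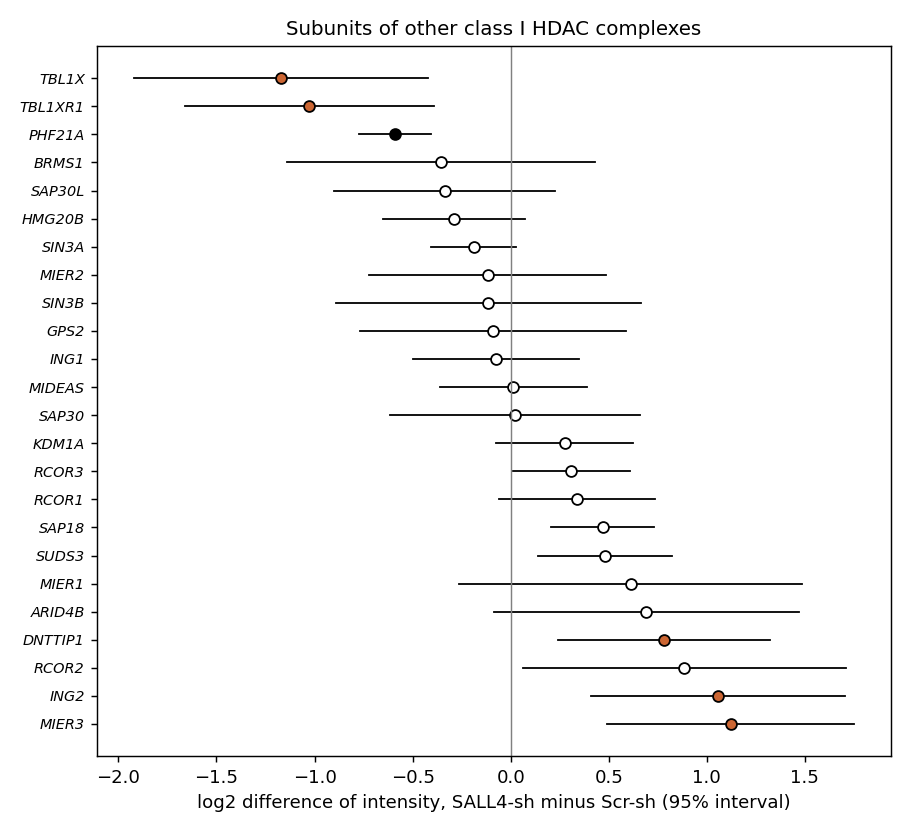
The log2 difference of intensity (SALL4-sh minus Scr-sh) with its 95% interval for 24 subunits of other class I deacetylase complexes, ordered by size. Black marks PHF21A (-0.59), which passed an adjusted p of 0.05 across all genes, orange marks the 5 that passed only without weak genes, and white marks the rest.

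Of the 14 deacetylases outside class I, 0 passed in limma at either setting, beside 2.51% of all genes and 11.5% of those kept. An unadjusted p under 0.05 was reached by 1 of the 14, beside 17.4% of all genes. Their median log2 difference was -0.02. SIRT1, a deacetylase that depends on NAD, was 116, 164 and 136 in Scr-sh and 206, 215 and 199.8 in SALL4-sh. The groups did not overlap, and the log2 difference of 0.59 had an adjusted p of 0.132 in limma. SIRT4 (0.27), HDAC7 (-0.20) and HDAC6 (-0.16) had adjusted p values of 0.378, 0.434 and 0.560 in limma, and HDAC11 was at the floor on all arrays.

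Genes that deacetylase inhibitors are known to induce gave a reading of the same cells, and 5 of 7 listed were measured. TXNIP, an inhibitor of thioredoxin, was the 1 that passed, beside 2.51% of all genes. Its mean went from 488 ± 83.0 to 29.6 ± 7.77, and it fell by 4.06 on the log2 scale (adjusted p = 0.0123 in limma). It no longer passed without Scr-sh replicate 3, SALL4-sh replicate 1 or SALL4-sh replicate 2 (adjusted p up to 0.0662 in limma). The cell cycle inhibitors CDKN1A (0.08) and CDKN1C (-0.24) and the actin regulator GSN (0.03) had overlapping groups. DHRS2 lay higher in every SALL4-sh array, with a log2 difference of 0.70 and an adjusted p of 0.345 in limma.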

How the data were processed

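Gene expression was measured in H661 cells with scrambled or SALL4 shRNA, 3 Affymetrix arrays each. The authors deposited the normalized intensity of 32321 probe sets in 1 table, made with RMA according to the submitters' processing notes (version not given). The deposited intensity is linear. Its lowest value is 8, where 38.8% to 40.4% of the values of each array stand, so differences among weak signals cannot be seen. Precision is limited by the number of arrays.

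Gene symbols came from the platform annotation, which gave 1 symbol for 19158 probe sets, several for 1388 and none for 11775. The brightest probe set carried each of 18404 genes, 3893 of which were at the floor throughout. Groups were tested on log2 intensity in R 4.3.3 by limma 3.58.1 (lmFit and untrended eBayes, no filter, Benjamini-Hochberg adjustment over all genes, threshold 0.05). Exact two-sided permutation tests used the 20 labelings of the arrays. A one-way ANOVA per gene, the kind of test that the study names for its arrays, was an alternative, as were 3 filters on weak genes, other normalizations, a replicate block and each array left out. The 25th percentile filter combined with a left-out array was added after seeing the data.

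All members were named, with SALL4, the other NuRD subunits and, of each other list, the genes past the threshold and up to 4 more with the smallest p. The members were chosen by name and not from these values, but earlier results of these data were known when members and lists were chosen. Promoters came from a RefSeq table of GRCh38.p14. The files name no build, and probe positions are not given.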

Additional observations from a re-analysis of the deposited data

How the results depend on the processing

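Of the 20 planned settings, 10 can move a member's log2 difference (3 normalizations, array weights and 6 arrays left out), and the others change only its test. Under those 10 each member kept its direction except HDAC3, which was 0.079 without Scr-sh replicate 1 and 0.089 without SALL4-sh replicate 3 (range -0.17 to 0.089). Each of the 3 filters on weak genes gave 2 members past the threshold, HDAC2 at 0.59 and RBBP4 at -1.20. Beside this, 1243 of 14511 genes passed with the filter at the floor and 1585 of 13803 (11.5%) at the 25th percentile. The 50th percentile filter gave 1565 from a smaller set of genes, so the share of the genes kept was larger there. With 1 array left out 0 members passed. When the 25th percentile filter was added, a combination chosen after seeing the data, 1 member passed (RBBP4, range -1.39 to -0.999). At an unadjusted p 5 did (HDAC1 -0.36, HDAC2 0.59, MTA1 -0.57, RBBP4 -1.20, RBBP7 -0.47), as did 1 other NuRD subunit, 10 subunits of other class I complexes and 1 other deacetylase. The share of all genes at that threshold was 17.4%. The one-way ANOVA gave 5 members at an unadjusted p under 0.05 (1 higher, 4 lower) and 0 after adjustment. Of all 18404 genes, 1520 were higher and 1275 lower at that unadjusted threshold of the ANOVA. Subunits of other complexes numbered 5, 6 and 7 with the filter at the floor, the 25th and the 50th percentile, and 0 with a trended robust prior, the replicate block, all probe sets or the ANOVA, and 0 to 2 with 1 array left out. The readout genes (TXNIP) numbered 0 to 1 with 1 array left out.

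Whether the replicate numbers pair the samples is not given by the labels, and the data were mixed. Same-numbered arrays correlated in their deviations at 0.144, 0.113 and -0.00069 for replicates 1, 2 and 3, and the 4 arrays of replicates 1 and 2 correlated best with their own number. As the study's methods name no block, the numbers were not treated as pairs in the main fit. With the replicate as a block, 0 members, 0 readout genes and 10 genes in all passed, and SALL4 kept -1.97 with adjusted p = 0.115 (limma). SALL4 ranged from -2.07 to -1.87 with 1 array left out. Paralog ratios ranged from -0.43 to 0.058 for MTA1 to MTA2, -0.21 to 0.35 for MBD3 to MBD2 and -0.10 to 0.25 for CHD4 to CHD3.

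All genes past the threshold numbered 462, against 1243, 1585 and 1565 with the filters, 76 with a trended robust prior, 243 with all probe sets, 111 with the ANOVA, 3206 unadjusted and 52 to 404 with 1 array left out. The cause of these shifts was not tested. With cyclic loess normalization 573 passed (224 higher and 349 lower, against 218 and 244), and several members were shifted down, HDAC1 to -0.46, HDAC2 to 0.48 and RBBP7 to -0.58, with no member's call changed.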

Other observations

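Of 11 acetyltransferases, enzymes that add acetyl groups, 1 passed the threshold in limma, beside 2.51% of all genes. HAT1, which acetylates newly made histone H4 and works with RBBP7, was 178, 201 and 193 in Scr-sh and 346, 483 and 406 in SALL4-sh, and it rose by 1.10 on the log2 scale (limma, adjusted p = 0.0454). With any 1 array left out HAT1 no longer passed in limma (adjusted p = 0.0746 to 0.152). Without weak genes 3 of the 11 passed, beside 11.5% of the genes kept. In limma these were HAT1, KAT6A (0.69, adjusted p = 0.0380) and, in the lower direction, KAT2B (-1.23, adjusted p = 0.00462). CREBBP (-0.21) and NAA60 (0.41) had adjusted p values of 0.257 and 0.293 in limma.

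Among 10 factors that recruit NuRD, SALL4 alone passed in limma across all genes, where 2.51% of genes passed. Without weak genes 2 of the 10 passed, SALL4 and ZFPM2, beside 11.5% of the genes kept. ZFPM2, a partner of GATA factors, lay at 71.3 ± 10.3 in Scr-sh and 35.7 ± 4.61 in SALL4-sh (limma, adjusted p = 0.00892 with the filter and 0.0586 across all genes). BCL11A (0.66), ZFPM1 (-0.30) and ZNF827 (-0.21) had adjusted p values of 0.157, 0.466 and 0.693 in limma across all genes, and IKZF1 was at the floor throughout.

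HDAC1 and RBBP4 lie near each other on chromosome 1, with 9 protein-coding genes from one to the other in the RefSeq order, of which 6 were measured. The 4 between them, looked at after the values of HDAC1 and RBBP4 were seen, had log2 differences of 0.02 (MARCKSL1), -0.79 (TSSK3, with 1 array at the floor), -0.22 (BSDC1) and 0.57 (ZBTB8OS). ZBTB8OS lay higher in every SALL4-sh array, at 49.1, 79.6 and 58.3 against 39.8, 39.4 and 44.5 (limma, adjusted p = 0.264). TSSK3 passed without weak genes (adjusted p = 0.0239 in limma), and the genes between lay on both sides of 0.

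Reference genes varied too. Of 8 measured, 0 passed across all genes in limma, beside 2.51% of all genes. Without weak genes 2 of the 8 passed, beside 11.5% of the genes kept. These were ACTB (-0.63) and PGK1 (-0.57), both lower in SALL4-sh. TFRC was lower (-0.53) and HPRT1 higher (0.53) in every SALL4-sh array, at adjusted p = 0.149 and 0.227 in limma across all genes.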
